A study of Mus musculus with 81 samples.

Results

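CA3 pyramidal neurons (CA3 PNs) of disomic (2N) mice whose dams had been fed a choline-supplemented diet (ChP) were compared with those of 2N mice whose dams had been fed a choline-normal diet (ChN). The members were all 2N libraries of the CA3 count matrix, 7 ChP and 6 ChN, which made 13 of the 81 libraries of the series. Each library is 1 mouse of about 6 months of age (MO), and the study also sampled CA1 PNs and dentate gyrus granule cells (DG) and trisomic Ts65Dn (Ts) mice. The dams were Ts65Dn, a mouse model of Down syndrome, and received chow with 1.1 g/kg choline (ChN) or 5.0 g/kg choline (ChP) from gestation until the pups were weaned, after which all offspring were kept on the control diet. The dam was thus trisomic in both groups, and the pups carried no trisomy. According to the methods, the colony was kept by crossing to hybrid males with C57Bl/6J and C3H/HeSnJ parents, so alleles of both strains segregated among the mice. The brains were perfused, frozen and Nissl stained, and neurons were taken by laser capture microdissection, which collects cell bodies from a section together with what touches them. The dam, litter and date of each mouse were not given in the labels used here.

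Choline is the precursor of the transmitter acetylcholine and of phosphatidylcholine, the main phospholipid of cell membranes, and after oxidation to betaine it donates methyl groups for S-adenosylmethionine and thereby for methylation of DNA and histones. CA3 PNs receive the mossy fibers of dentate granule cells, excite each other through recurrent collaterals and drive CA1 through the Schaffer collaterals, and they receive cholinergic input from the basal forebrain. The comparison addresses whether the diet of the dam during development left a difference in the transcriptome of these neurons in the disomic adult.

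One library needs a caution. The CA3 library of mouse 15-145 is labelled Ts, whereas the CA1 and DG libraries of the same mouse are labelled 2N, and it was counted as 2N ChN. Over 58 tested genes of the triplicated chromosome 16 segment its mean log2 CPM (counts scaled to the library total and adjusted by TMM) was 5.25, next to 5.07 to 5.14 in the other 5 ChN libraries and 4.97 to 5.22 in ChP, and apart from 5.52 to 5.71 in the 13 Ts CA3 libraries. Libraries held 625249 to 4744036 expected counts in ChN, with mouse 15-145 the highest, and 710829 to 1971336 in ChP (exact permutation test, two-sided, p = 0.277). The mitochondrial share of the count was 5.85 to 8.14% in ChN and 6.15 to 8.52% in ChP (exact permutation test, p = 0.396). CA3 markers were present in every library, with Cpne4 at 258 to 352 CPM, while Ttr of choroid plexus was at 0 or within 0.219 CPM. The 10 CA3 markers summed to 1797 to 1955 CPM in ChN and to 1847 to 1963 CPM in ChP. Of the other cell types, inhibitory neuron markers summed to 708 to 1039 CPM in ChN and 599 to 1194 CPM in ChP, astrocyte markers to 2027 to 2892 CPM and 1715 to 2640 CPM, and vascular markers to 292 to 367 CPM and 287 to 351 CPM. The number before the hyphen of a mouse's name nearly separates the diets, since the ChN mice are named 15- (2 mice) or 17- (4 mice) and the ChP mice 14- (1), 15- (4) or 16- (2). What this number means was not given, and diet and number cannot be told apart outside the mice named 15-.

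Of 13684 genes tested, 558 were differentially expressed genes (DEGs) at an unadjusted p under 0.05, the threshold of the study, of which 261 were higher and 297 lower in ChP (edgeR quasi-likelihood test). This is 4.08% of the genes, where 5% of genes would pass with no difference at all. One gene, Medag, passed after Benjamini-Hochberg adjustment over all genes (0.00731% of the genes), and the next smallest adjusted p was 0.343. The median log2 fold change (LFC, ChP against ChN) over all genes was -0.0028 and the median standard error 0.21. Among DEGs the median size of the LFC was 0.53, and 128 had a fold of 2 or more. All DEGs named below except Medag are DEGs at the unadjusted threshold only, and each of them alone failed the adjustment. Some genes named below passed neither threshold.

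Medag (mesenteric estrogen-dependent adipogenesis gene, ENSMUSG00000029659, GRCm39 chr5:149334629-149356015, plus strand), known for promoting fat cell differentiation, was lower in ChP. Its level in ChN was 37.0 CPM in mouse 15-145, 41.0 in 15-147, 31.0 in 17-154, 31.0 in 17-172, 33.9 in 17-21 and 40.6 in 17-56. In ChP it was 11.2 CPM in mouse 14-125, 17.0 in 15-269, 7.37 in 15-296, 17.1 in 15-334, 9.64 in 15-336, 17.4 in 16-273 and 21.3 in 16-90. Every ChP library lay below every ChN library, which held for 10 of the genes tested in this direction (0.0731%) and, with ChP above ChN, for 5 (0.0365%). The mean was 35.7 ± 4.48 CPM (SD, n = 6) in ChN and 14.4 ± 5.03 CPM (SD, n = 7) in ChP, a 2.48-fold lower level (LFC -1.31 ± 0.19 SE, 95% interval -1.70 to -0.93, edgeR adjusted p = 0.000323). Medag kept an adjusted p under 0.05 in all 25 alternative analyses, from 5.13e-08 to 0.0197, with an LFC between -1.57 and -1.17. The largest of these p-values came from the mice named 15- alone, in which both ChN mice lay above all 4 ChP mice. In TPM, the deposited unit that is scaled to transcript length, the groups overlapped, at 5.89 to 18.3 TPM in ChN and 3.44 to 10.8 TPM in ChP.

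**Figure D1:**
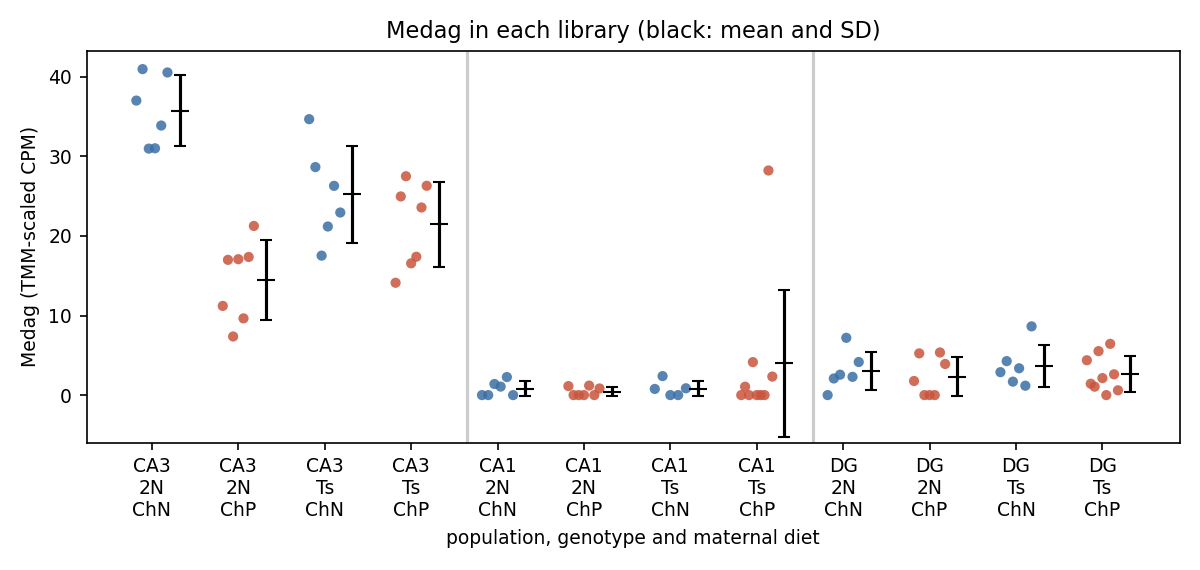
TMM-scaled CPM of Medag in each of the 81 libraries, with population, genotype and maternal diet on the x axis; each point is a library (blue ChN, red ChP) and the black bars give the mean and SD of the group. The 2N CA3 libraries are at 31.0 to 41.0 CPM in ChN and at 7.37 to 21.3 CPM in ChP, the Ts CA3 groups overlap, CA1 and DG of 2N mice stay at or below 7.20 CPM, and 1 CA1 library of a Ts ChP mouse is at 28.2 CPM.

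In the other populations of 2N mice Medag was at 0 to 2.27 CPM in CA1 and 0 to 7.20 CPM in DG, and too low there to be tested within either population. In the fit of all 2N libraries, the diet difference in CA3 less that in CA1 was -0.59 ± 1.46 SE (edgeR interaction, unadjusted p = 0.688). Less that in DG it was -0.91 ± 0.65 SE (edgeR interaction, unadjusted p = 0.168). A diet effect on Medag particular to CA3 was thus not shown. In Ts mice 1 CA1 library, of ChP mouse 16-272, was at 28.2 CPM, within the CA3 range, and the other CA1 and DG libraries were at or below 8.64 CPM. In Ts CA3 the level was 17.5 to 34.7 CPM in ChN and 14.1 to 27.5 CPM in ChP, and the diet difference was an LFC of -0.22 ± 0.18 SE (edgeR adjusted p = 0.990). The diet difference in 2N less that in Ts was -1.09 ± 0.26 SE on the log2 scale (edgeR interaction, unadjusted p = 7.56e-05), and it failed the adjustment (adjusted p = 0.564). It had the smallest p of 16721 genes, but Egr4 did without mouse 15-145 or with that library under its own label, and the gene model Gm44899 with limma-voom. Of 13 other genes tested within 1000000 bases of Medag, 1 was a DEG. That gene was Fry, a large gene of microtubule and mitotic control whose start lies 686 kb from the end of Medag, and the other 12 did not pass.

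The upstream window of Medag and those of 4 immediate early genes described next are shown because Medag passed the adjustment and the others belong to the group with the most DEGs lower in ChP. They come from RefSeq (GRCm38.p6). Each window is the 250 bases before the annotated start, written 5′ to 3′ on the strand of the gene. Capitals mark the letters TGACGT on either strand, the core of the cAMP response element (CRE) bound by CREB in stimulated neurons.
Medag, chr5:149411499-149411748, plus strand: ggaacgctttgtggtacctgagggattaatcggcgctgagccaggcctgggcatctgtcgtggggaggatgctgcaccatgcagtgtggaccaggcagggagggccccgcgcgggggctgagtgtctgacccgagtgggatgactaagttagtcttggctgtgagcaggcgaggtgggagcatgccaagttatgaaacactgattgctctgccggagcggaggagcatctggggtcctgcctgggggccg
Npas4, chr19:4989972-4990221, minus strand: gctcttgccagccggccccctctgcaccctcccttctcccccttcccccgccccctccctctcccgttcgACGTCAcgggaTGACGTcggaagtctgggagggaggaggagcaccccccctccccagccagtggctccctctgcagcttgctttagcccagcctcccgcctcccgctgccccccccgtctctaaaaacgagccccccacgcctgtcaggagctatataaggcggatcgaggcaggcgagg
Egr4, chr6:85513590-85513839, minus strand: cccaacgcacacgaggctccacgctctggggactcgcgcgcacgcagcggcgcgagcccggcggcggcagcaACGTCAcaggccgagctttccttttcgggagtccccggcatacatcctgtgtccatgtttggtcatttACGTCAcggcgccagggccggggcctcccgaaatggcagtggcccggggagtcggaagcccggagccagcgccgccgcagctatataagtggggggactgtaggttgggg
Fos, chr12:85473640-85473889, plus strand: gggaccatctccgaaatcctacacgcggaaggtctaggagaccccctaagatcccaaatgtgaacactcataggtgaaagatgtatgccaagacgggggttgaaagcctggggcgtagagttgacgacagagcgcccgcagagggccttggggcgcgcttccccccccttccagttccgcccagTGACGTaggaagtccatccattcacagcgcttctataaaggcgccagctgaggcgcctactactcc
Junb, chr8:84978749-84978998, minus strand: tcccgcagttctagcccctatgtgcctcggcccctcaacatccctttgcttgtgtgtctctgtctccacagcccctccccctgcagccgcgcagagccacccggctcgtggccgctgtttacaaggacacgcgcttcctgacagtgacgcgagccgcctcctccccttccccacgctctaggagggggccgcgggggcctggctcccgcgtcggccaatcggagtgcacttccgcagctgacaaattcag
The letters TGACGT stood on either strand in 6.47% of the 32851 windows of the table, and the full element TGACGTCA in 1.55%. The windows of Npas4 and Egr4 held the letters at 2 places each and that of Fos at 1, while those of Junb and Medag held none. Of the 35 windows of immediate early genes, 13 (37.1%) held the letters. Some windows of Egr2 overlap, so that 1 site can count more than once, and a relation of the letters to diet was not tested. Counted by gene, where a gene had up to 7 windows and 1 sufficed, 11 of 23 genes with a window had them. These were 3 of the 4 that were lower with diet and 8 of the 19 others. Arc, Egr3 and Sik1, also lower with diet, had no window. The share by gene over all genes was not computed, so the counts by gene have no background beside them. Medag has a second listed start, whose window held none.

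Immediate early genes are transcribed in neurons within minutes of strong activity. Of 30 tested in CA3 PNs, 7 fell in ChP (Npas4, Egr4, Junb, Sik1, Egr3, Fos and Arc) and none rose, where 2.17% of all genes fell and 1.91% rose. Apart from Npas4 and Egr4, which the naming rule gave, the 5 others are named because the count was seen. The median LFC of the 30 was -0.22, beside -0.0028 over all genes. The 7 are transcription factors, except Arc, which acts in AMPA receptor endocytosis, and Sik1, a salt-inducible kinase. None passed the adjustment over all genes. Npas4, which regulates inhibitory synapses in an activity-dependent way, ran from 24.8 to 57.7 CPM with a median of 40.5 in ChN and from 13.9 to 39.2 CPM with a median of 17.4 in ChP. All but 1 of the ChP libraries, mouse 15-334 at 39.2 CPM, were below the lowest ChN library (LFC -0.90 ± 0.25 SE, edgeR unadjusted p = 0.00191, adjusted p = 0.998). Egr4 ran from 18.4 to 31.0 CPM in ChN and from 10.9 to 31.7 CPM in ChP. Here 6 ChP libraries lay below the lowest ChN library and mouse 15-336 above the highest (LFC -0.63 ± 0.22 SE, edgeR unadjusted p = 0.00608, adjusted p = 0.998). Sik1 was low in both groups, at 3.10 to 7.63 CPM in ChN and 0 to 4.13 CPM in ChP (LFC -1.23 ± 0.44 SE, edgeR unadjusted p = 0.00761, adjusted p = 0.998).

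The remaining 4 overlapped more between the diets. Fos ran from 11.2 to 33.9 CPM in ChN and from 5.26 to 25.3 CPM in ChP (LFC -0.77 ± 0.29 SE, edgeR unadjusted p = 0.0149, adjusted p = 0.998). Junb had medians of 31.2 and 22.1 CPM (LFC -0.55 ± 0.19 SE). The more abundant Arc and Egr3 differed by less on the log scale, with LFCs of -0.47 ± 0.20 SE and -0.25 ± 0.09 SE. Among members that did not pass, Egr1 had an LFC of -0.25 ± 0.18 SE, Nr4a1 -0.38 ± 0.20 SE, Fosb 0.09 ± 0.26 SE and Klf4 1.13 ± 0.64 SE. Bdnf, the neurotrophin induced by activity, had an LFC of -0.16 ± 0.12 SE. These 5 were picked for their roles. In mean TPM the 7 DEGs were also on the lower side in ChP, but Egr3 was almost equal, at 76.1 ± 30.2 TPM (SD, n = 6) in ChN and 75.9 ± 21.3 TPM (SD, n = 7) in ChP.

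**Figure D2:**
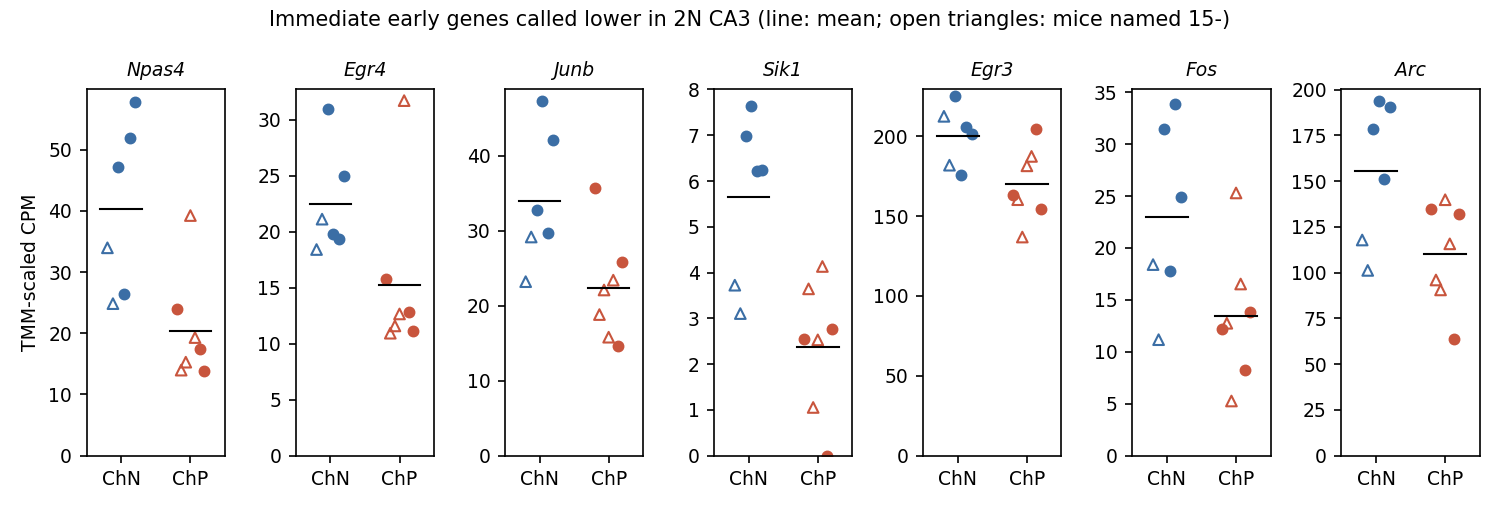
TMM-scaled CPM of the 7 immediate early genes called lower, in the 6 ChN and 7 ChP libraries of 2N CA3; each point is a library, open triangles are the mice named 15- and the line is the group mean. The highest ChN value of each gene is in a mouse named 17-, and for Arc and Sik1 all 4 mice named 17- lie above all other libraries.

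The level of these genes also moved with the number in the mouse's name. Within ChN, Arc was at 101 and 118 CPM in the 2 mice named 15- and at 151 to 194 CPM in the 4 named 17-, and Sik1 at 3.10 and 3.72 CPM against 6.22 to 7.63 CPM. The 4 ChP mice named 15- had Arc at 90.5 to 140 CPM, over the range of the ChN mice of that number. With the mice named 15- alone, 0 of the 30 genes passed, and the LFC was 0.0009 for Arc, -0.09 for Fos and -0.45 for Npas4, at 2 mice against 4. The median LFC of the 30 was then -0.08. The part of the mouse number in the result was not tested further. Inhibitory neuron markers were also on the lower side, with a median LFC of -0.30 over 15 tested and 2 DEGs, where 2.17% of all genes fell. These were Npy (neuropeptide Y, LFC -1.48 ± 0.66 SE) and Adarb2 (of the RNA editing deaminase family, LFC -0.75 ± 0.31 SE). Npy was at 51.3 CPM in ChN mouse 15-145 against 9.15 to 18.7 in the other ChN mice. Without mouse 15-145 the median LFC of the 15 was -0.14, with 1 DEG. In Ts CA3 the median LFC of the 15 was 0.25, with 4 higher and 0 lower, where 2.73% of all genes were higher. Adarb2 was far higher in DG of 2N ChN mice, at 143 to 212 CPM against 6.98 to 11.8 CPM in CA3. Which cells its CA3 counts came from was not tested. Gad1 and Gad2, which make GABA, had LFCs of -0.04 and -0.30 and did not pass. The part of interneuron RNA in the result was not tested. In bulk samples, fewer cells of a type and less RNA per cell cannot be told apart.

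Of 33 tested genes of choline uptake and phospholipid synthesis, 1 rose and none fell, with a median LFC of -0.03. This is near the shares over all genes, 1.91% higher and 2.17% lower, as are the counts of the one-carbon, DNA methylation and acetylcholine lists described next. The one was Pisd, the mitochondrial decarboxylase that makes phosphatidylethanolamine from phosphatidylserine, at 19.8 to 29.6 CPM in ChN and 24.04 to 36.1 CPM in ChP (LFC 0.38 ± 0.16 SE, edgeR unadjusted p = 0.0211, adjusted p = 0.998). Those with the most counts were the ethanolamine kinase Etnk1 (LFC -0.01 ± 0.07 SE, 95% interval -0.15 to 0.14), the phospholipase D family member Pld3 (-0.01 ± 0.07 SE) and the neutral sphingomyelinase Smpd3 (0.04 ± 0.11 SE). The choline transporter Slc44a1 had an LFC of -0.17 ± 0.13 SE, choline kinase alpha (Chka) 0.16 ± 0.11 SE and choline phosphotransferase Chpt1 -0.16 ± 0.16 SE. For 30 of the 33 the 95% interval of the LFC stayed within 1 in either direction.

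The enzymes of one-carbon metabolism did not pass in either direction, 0 of 36 tested, with a median LFC of -0.05. Mat2a, which makes S-adenosylmethionine, had an LFC of -0.10 ± 0.11 SE, its regulatory partner Mat2b -0.14 ± 0.12 SE and the S-adenosylhomocysteine hydrolase-like Ahcyl1 -0.10 ± 0.09 SE. Choline dehydrogenase (Chdh), which starts the path from choline to betaine, had a mean of 0.382 TPM, too low for a precise value (LFC -0.28 ± 0.53 SE). Of 22 genes of DNA methylation and its readers, 1 fell. That was Tet2, which oxidizes methylcytosine, at 83.8 to 122 CPM in ChN and 66.9 to 93.4 CPM in ChP (LFC -0.27 ± 0.11 SE, edgeR unadjusted p = 0.0192, adjusted p = 0.998), with nearly equal mean TPM (17.1 ± 11.3 and 16.6 ± 5.02). The methyltransferases Dnmt1 and Dnmt3a had LFCs of -0.04 ± 0.13 SE and 0.01 ± 0.13 SE, and the list members Mbd5 and Zbtb38 of -0.02 ± 0.10 SE and 0.02 ± 0.09 SE. None of 50 histone methylation enzymes passed. Of 16 genes of acetylcholine receptors and turnover none passed, with the muscarinic receptors Chrm1 at an LFC of 0.11 ± 0.09 SE and Chrm3 at -0.06 ± 0.09 SE, the nicotinic modulator Lynx1 at -0.01 ± 0.09 SE, the nicotinic subunit Chrna7 at 0.03 ± 0.14 SE and acetylcholinesterase (Ache) at 0.10 ± 0.13 SE. Members of these lists that are neither DEGs nor among those with the most counts are given for their roles, chosen after values were seen.

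**Figure D3:**
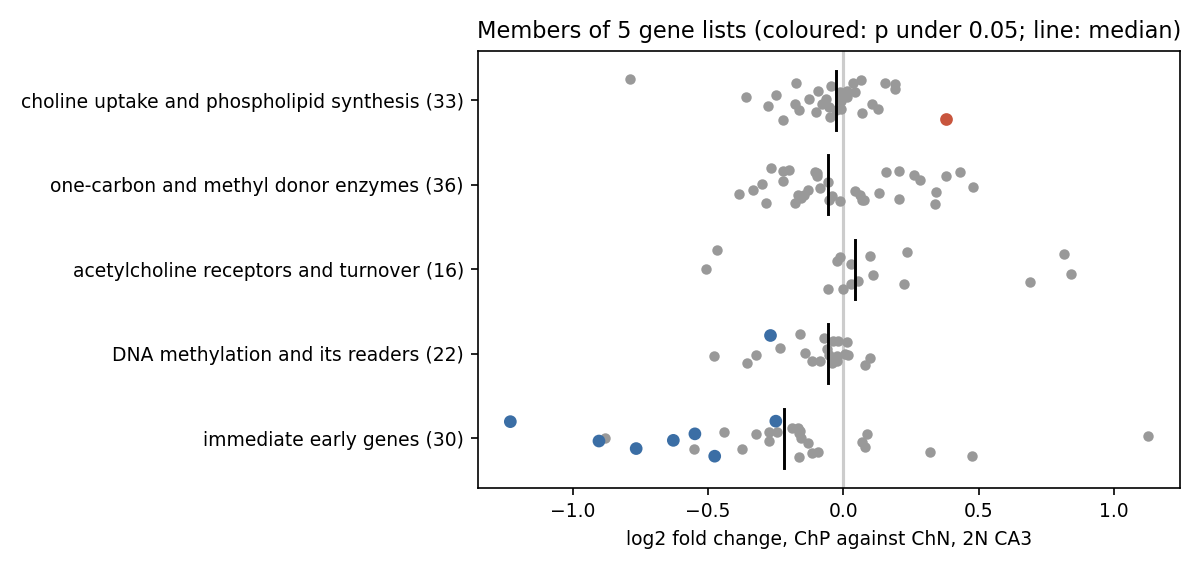
LFC (ChP against ChN, 2N CA3) of each tested member of 5 gene lists, with the number of members in brackets; coloured points have an unadjusted p under 0.05 (red higher, blue lower in ChP) and the black line is the median of the list. The medians are -0.03, -0.05, 0.04 and -0.06 for the 4 choline-related lists and -0.22 for immediate early genes.

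Apart from Medag, the 11 protein-coding genes with the smallest p among those lower in ChP were led by Camk1 (calcium/calmodulin-dependent protein kinase I), which acts downstream of calcium entry. Camk1 ran from 34.6 to 63.3 CPM in ChN and 17.9 to 45.5 CPM in ChP, with 4 ChP libraries below the lowest ChN library (LFC -0.73 ± 0.16 SE, edgeR unadjusted p = 7.97e-05, adjusted p = 0.364). Fgf2, a growth factor of the fibroblast growth factor family, did not overlap between the groups, at 7.61 to 12.5 CPM in ChN and 2.53 to 7.40 CPM in ChP (LFC -1.14 ± 0.32 SE), and it was the 1 DEG among 24 tested neurotrophins, growth factors and receptors. The groups did not overlap either for the SH2 domain adaptor Sh2d5 (24.9 to 34.1 and 10.2 to 24.7 CPM, LFC -0.68 ± 0.18 SE) and the zinc finger gene Zfp1006 (20.9 to 32.8 and 12.7 to 20.3 CPM, LFC -0.63 ± 0.18 SE). Arl4d, a small GTPase of the ARF family, fell by 1.54 on the log2 scale, Doc2a, a calcium sensor of transmitter release, by 0.87, and Tmod1, which caps the slow-growing end of actin filaments, by 0.60. Cpm, a membrane carboxypeptidase, had an LFC of -0.77, the adaptor Blnk of -1.05, the linker histone-like Hp1bp3 of -0.50 and Bacc1 of -1.61. Bacc1 shares its strand with an overlapping gene model, and Sh2d5 overlaps Kif17 on the same strand, so that reads could be split between them. Fgf2 overlaps Nudt6, Camk1 Ogg1, and Doc2a Ino80e on the opposite strand, and these reads cannot be told apart without strand. Medag (with Gm20488), Ptprb and Tenm3 overlap gene models on the same strand, where strand would not separate the reads.

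Among genes higher in ChP, Ptprb (vascular endothelial protein tyrosine phosphatase) did not overlap, at 4.58 to 9.36 CPM in ChN and 11.5 to 18.3 CPM in ChP (LFC 0.92 ± 0.24 SE, edgeR unadjusted p = 0.000458, adjusted p = 0.998). It was also higher with the ChP diet in Ts CA3, in other mice (LFC 0.67 ± 0.25 SE, edgeR unadjusted p = 0.0104, adjusted p = 0.988). Vascular markers had a median LFC of 0.29 over 12 tested with no DEG, at summed levels that overlapped between the diets, and Cldn5 and Pecam1 were at 0.436 to 10.9 CPM in all 13 libraries. Their part in the Ptprb result was not tested. Syt17, a synaptotagmin family member, had the largest LFC (2.77 ± 0.67 SE), but it was at 0 to 1.10 CPM in ChN, and in ChP at a median of 1.90 CPM with mouse 15-296 alone at 17.4 CPM. Neuronal genes with more moderate LFCs were the endosomal AMPA receptor partner Nsg2 (205 to 276 and 254 to 397 CPM, LFC 0.30 ± 0.09 SE), the wiring molecule Tenm3 (0.61 ± 0.18 SE) and the formin Fmnl2 (0.58 ± 0.18 SE). The rest were Tshz3 (a zinc finger transcription factor, 1.003 ± 0.32 SE), Pop1 (an RNase P subunit, 1.06 ± 0.32 SE), B4galt2 (a galactosyltransferase, 0.65 ± 0.21 SE) and Dnajc10 (an endoplasmic reticulum disulfide reductase, 0.38 ± 0.12 SE). Some of these higher genes were more abundant in another population of 2N ChN mice. Tenm3 had a median of 761 CPM in CA1 against 20.6 in CA3. In DG the medians of Syt17, Fmnl2 and Tshz3 were 71.0, 66.4 and 28.4 CPM, against 0.596, 17.95 and 4.77 in CA3. Ptprb was not, at 7.23 CPM in CA1, 5.85 in DG and 8.42 in CA3. The part of RNA from neighboring populations was not tested. The gene models Gm28043 (1.23 ± 0.26 SE) and Gm7694 (1.60 ± 0.50 SE) lie over Rnf8 and Cmtr1 and over Nos1ap on the same strand, and their counts are uncertain for that reason.

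**Figure D4:**
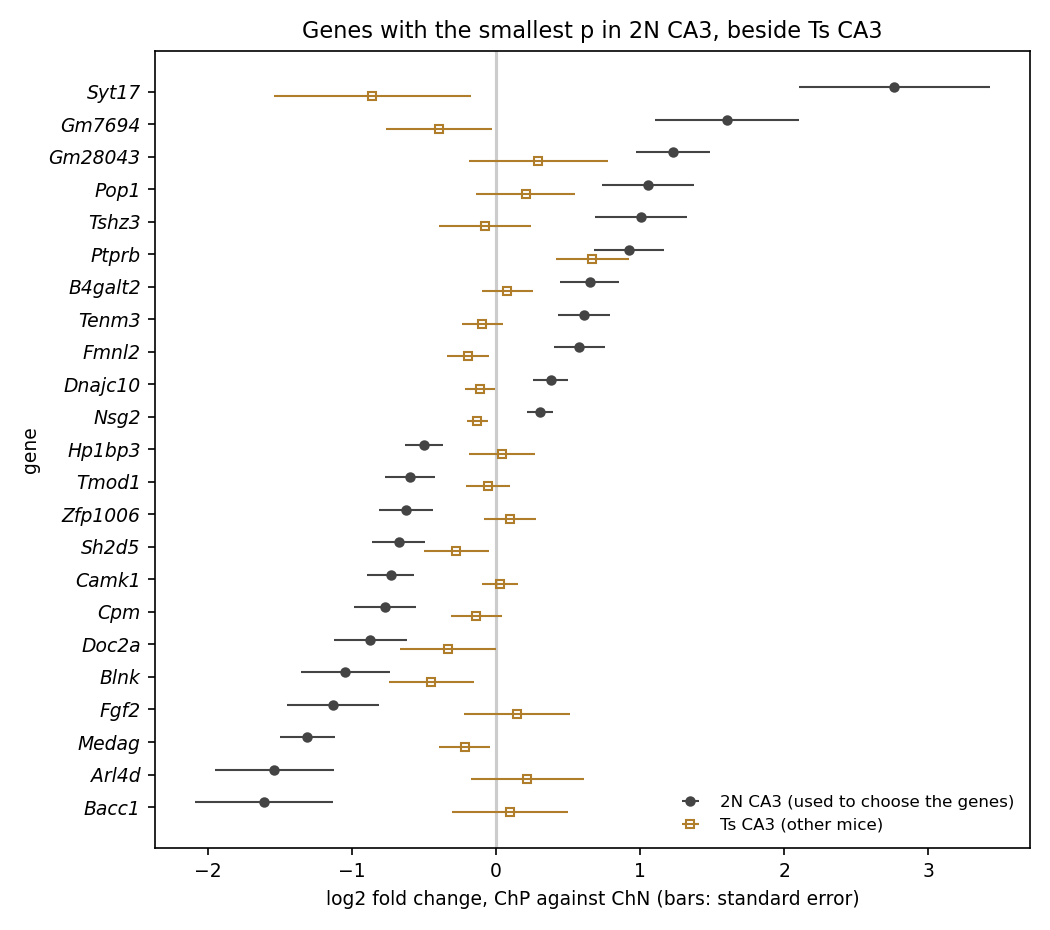
LFC with its standard error (ChP against ChN) of 23 protein-coding genes with the smallest p in 2N CA3, 11 higher and 12 lower in ChP (1 more of the higher genes is not shown), in 2N CA3 (filled circles) and in Ts CA3 (open squares), with gene names on the y axis. Since the genes were chosen on the 2N values, their distance from 0 there is a description; in Ts CA3 Medag is at -0.22, Camk1 at 0.03 and Ptprb at 0.67.

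Groups of synapse and excitability genes are given beside the shares over all genes, of which 1.91% rose and 2.17% fell in ChP. Of 39 potassium channel genes 3 rose and none fell, among them the fast-spiking Kv3 subunit Kcnc2 (90.6 to 189 CPM and 139 to 219 CPM, LFC 0.48 ± 0.17 SE) and the auxiliary subunit Kcnab2 (LFC 0.22 ± 0.09 SE). Of 45 ionotropic glutamate receptor genes and partners 2 rose, the kinase Camk2g (81.1 to 101 CPM and 94.8 to 140 CPM, LFC 0.31 ± 0.10 SE) and the scaffold Shank2 (LFC 0.18 ± 0.09 SE). Of 62 genes of vesicle release 4 rose, among them Syt17 and the active zone gene Erc1 (LFC 0.19 ± 0.09 SE), and Doc2a fell. Of 28 calcium and sodium channel genes Nalcn, the sodium leak channel, rose (LFC 0.19 ± 0.09 SE) and Cacna1a, the pore subunit of P/Q-type channels, fell (LFC -0.15 ± 0.07 SE). Of 21 genes of GABA receptors and the inhibitory synapse Shisa4 rose (LFC 0.41 ± 0.18 SE), and none of 5 metabotropic glutamate receptors passed. Of 79 adhesion genes 3 rose, led by Tenm3 and the semaphorin receptor Nrp1 (LFC 0.23 ± 0.09 SE), and 3 fell, led by the ephrin receptors Ephb2 (LFC -0.45 ± 0.14 SE) and Epha5 (LFC -0.45 ± 0.16 SE). Of 57 clustered protocadherins, whose exons share sequence so that counts can be split between members, 3 rose, led by Pcdhb20 (LFC 0.71 ± 0.31 SE) and Pcdhga7 (0.70 ± 0.30 SE), and 4 fell, led by Pcdhb11 (-1.09 ± 0.36 SE) and Pcdha10 (-0.80 ± 0.27 SE).

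The counts of the following lists are likewise to be read against 1.91% of all genes higher and 2.17% lower. In energy and protein metabolism, none of 78 nuclear-encoded and none of 7 tested mitochondrially encoded subunits of oxidative phosphorylation passed. Of 45 genes of glycolysis and the TCA cycle Gpi1 rose (LFC 0.16 ± 0.08 SE) and Ldhb fell (-0.26 ± 0.11 SE). Of 79 cytosolic ribosomal protein genes 3 rose, led by Rps6 (0.39 ± 0.16 SE) and Rpl17 (0.34 ± 0.16 SE), and 4 fell, among them Rps21 (-0.59 ± 0.21 SE), and of 75 mitochondrial ones Mrpl41 rose (0.43 ± 0.18 SE). Dhcr7, the last enzyme of cholesterol synthesis, rose (0.39 ± 0.19 SE) among 35 genes of that path. Map1lc3a of autophagosomes fell (-0.27 ± 0.12 SE) among 50 of autophagy and lysosome, the mitochondrial chaperonin partner Hspe1 fell (-0.35 ± 0.16 SE) among 55 chaperones, and none of 51 endosome and retromer genes passed. Of 38 extracellular matrix genes the protease Adamts9 (0.43 ± 0.18 SE) and the perineuronal net linker Hapln4 (0.29 ± 0.14 SE) rose and the laminin Lama5 (-1.14 ± 0.56 SE) fell. Of 62 genes that are triplicated in Ts mice, but not in these, the interferon receptor chain Ifngr2 rose (0.29 ± 0.13 SE), and the calmodulin regulator Pcp4 (-0.80 ± 0.30 SE) and the adhesion molecule Dscam (-0.24 ± 0.11 SE) fell. Without ChN mouse 15-145, whose CA3 library is labelled Ts, 1 of 61 rose and 0 fell. The mean log2 CPM of that library over 58 of these genes (5.25) was the highest among the 2N libraries. Ifngr2 was also the only DEG of 18 interferon and antigen presentation genes. Rora rose (0.48 ± 0.18 SE) among 22 clock genes, and Usp29 fell (-0.35 ± 0.16 SE) among 34 imprinted genes, a list that also held Dhcr7.

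Among noncoding genes, Miat, an abundant long noncoding RNA of neurons, was at 113 to 173 CPM in ChN and higher in ChP, at 148 to 249 CPM (LFC 0.32 ± 0.11 SE, edgeR unadjusted p = 0.00941, adjusted p = 0.998). In Ts CA3 its LFC was -0.24 ± 0.09 SE (edgeR unadjusted p = 0.0124, adjusted p = 0.988), and the difference between the genotypes had an unadjusted p = 0.00314 and an adjusted p = 0.983 (edgeR interaction). Snhg14, the host transcript of the Prader-Willi snoRNAs, fell in 2N CA3 (124 to 170 and 108 to 157 CPM, LFC -0.27 ± 0.10 SE) and by the same size in Ts CA3 (LFC -0.27 ± 0.10 SE, edgeR unadjusted p = 0.00838, adjusted p = 0.988). Sp3os (-1.49 ± 0.43 SE) and Gm45311 (-1.54 ± 0.53 SE) were lower, and Gm44509 (0.85 ± 0.29 SE) and A230103J11Rik (1.79 ± 0.65 SE) higher, all below 18 CPM.

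Of the markers of CA3 PNs 1 of 10 was a DEG, Cdh24 (LFC 0.37 ± 0.18 SE), and none of 7 general markers of excitatory neurons was. Single markers of other cells were DEGs: Pcp4 of CA2 (1 of 7), Dock10 of dentate granule cells (1 of 8, LFC 0.75), Calcrl of mossy cells (1 of 3, LFC 1.499), Acsbg1 of astrocytes (1 of 14, LFC -0.39), Trf of oligodendrocytes (1 of 13, LFC -0.48) and Itgam of microglia (1 of 11, LFC -1.07). Over all genes 1.91% rose and 2.17% fell. Without mouse 15-145 no marker of CA3, CA2, dentate granule cells, oligodendrocytes or microglia passed. Mossy cells (1 of 3) and astrocytes (1 of 13) then still had 1 each. No marker of CA1 PNs (5 tested), oligodendrocyte precursors (8), choroid plexus and ependyma (3) or vascular cells (12) passed, and none of blood was tested, 4 of whose 5 markers were at 0 in every library.

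The diet difference in 2N CA3 was set beside that in the other groups. In Ts CA3, measured in other mice, 681 of 13906 genes were DEGs with diet (4.9%; 2.73% higher and 2.17% lower in ChP). Of the 548 DEGs of 2N CA3 that were tested in both, 29 (5.29%) were DEGs in Ts CA3 as well, 12 in the same and 17 in the opposite direction, which is 4.38% of the 662 DEGs of Ts CA3. No gene passed the adjustment for a different effect of diet in the 2 genotypes, with 814 of 16721 at an unadjusted p under 0.05 (4.87%, of which 2.14% with a higher and 2.73% with a lower value in 2N; edgeR) and 997 with limma-voom. Egr4 is an example at the unadjusted level. It was lower with the ChP diet in 2N and higher in Ts CA3 (LFC 0.50 ± 0.18 SE, edgeR unadjusted p = 0.00679, adjusted p = 0.988), with a difference of -1.13 ± 0.28 SE (unadjusted p = 0.000101, adjusted p = 0.564, edgeR). In Ts CA3 1 immediate early gene was higher and 1 lower, of 30 tested, with a median LFC of 0.02.

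CA1 and DG of the 2N mice come from the same animals. Their own diet DEGs numbered 290 of 12942 (2.24%; 1.17% higher and 1.07% lower) and 728 of 13181 (5.52%; 2.62% higher and 2.9% lower), with none past the adjustment. Of the DEGs of 2N CA3, 21 were also DEGs in CA1 (18 in the same direction) and 44 in DG (34 in the same direction), 4.09% of 514 and 8.70% of 506 that were tested in both, and 7.47% and 6.40% of the DEGs of the other population. No gene passed the adjustment for a diet difference between CA3 and CA1 or between CA3 and DG, with 706 (3.98%) and 649 (3.66%) of 17752 at an unadjusted p under 0.05, and 613 and 559 with the mouse as a replicate block. By direction, 1.77% were higher and 2.2% lower in CA3 than in CA1, and 1.92% higher and 1.74% lower in CA3 than in DG. With limma-voom the numbers were 652 and 697. In 2N CA1 none of 29 immediate early genes passed, and in DG 1 of 25 was higher and none lower, with median LFCs of -0.17 and -0.02.

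In 4 of the 558 DEGs, named after their values were seen, the same direction passed the unadjusted threshold in all 3 populations of the 2N mice. The populations share the mice and their diet groups, so this is not a replication, and the share to be met without a difference was not computed. Fry ran from 413 to 725 CPM in ChN and from 103 to 440 CPM in ChP in CA3 (LFC -0.80 ± 0.28 SE), and its LFC was -0.98 ± 0.29 SE in CA1 and -0.68 ± 0.21 SE in DG. Hp1bp3 ran from 150 to 230 CPM and from 94.8 to 176 CPM in CA3, and its LFC was -0.50 ± 0.13 SE in CA3, -0.54 ± 0.14 SE in CA1 and -0.41 ± 0.14 SE in DG. Frrs1l, an auxiliary protein of AMPA receptor assembly, had LFCs of -0.53 ± 0.19 SE, -0.68 ± 0.25 SE and -0.60 ± 0.24 SE. The zinc finger gene Zfp933 had LFCs of -0.60 ± 0.20 SE, -0.85 ± 0.22 SE and -0.45 ± 0.20 SE. In Ts CA3 the 4 had LFCs of -0.17, 0.04, 0.07 and -0.11, and none passed. In TPM, Hp1bp3 did not differ in the mean, at 111 ± 26.6 TPM (SD, n = 6) in ChN and 113 ± 34.5 TPM (SD, n = 7) in ChP, whereas Fry was at 128 ± 44.2 and 73.3 ± 30.1 TPM. Of all 558 DEGs, 525 (94.1%) had mean TPM on the same side as their LFC, and of the genes named above Hp1bp3, Doc2a, Tenm3, Dscam and Lama5 did not.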

How the data were processed

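RNA-seq libraries of laser-captured CA3 PNs were measured in 13 2N mice. According to the authors' methods, reads of a stranded total RNA kit were trimmed, aligned with STAR and quantified with RSEM, and the deposited tables hold RSEM expected counts, not normalized, and TPM. The submitters' notes name Trimmomatic 0.39, Picard 2.26.2 and both GRCm39 and mm10, the paper GRCm39. Whether counting used the strand was not given in the sources used here. The matrix columns of all 81 libraries equalled the files of the single libraries within rounding of the stored values. Gene symbols and positions are from GENCODE release M39 (GRCm39), in which 56310 of 57010 identifiers had a symbol.

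Expected counts were rounded (0.744% were not whole). A gene entered the comparison when 10 or more of the 13 libraries exceeded 0.1 CPM. The comparison used the robust quasi-likelihood test of edgeR 4.0.16 under R 4.3.3, with TMM scaling and without covariates, since those of the study are not in the tables. CPM are TMM-scaled, standard errors follow from the F statistic, and p-values were adjusted by Benjamini-Hochberg over all genes. p-values measure the spread between mice and treat each mouse as independent. The diet was given to the dam, and dam and litter were not given. If littermates are among the mice, the p-values, also that of Medag, could be too small. Totals of 625249 to 4744036 counts limit precision for low genes.

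Groups follow the labels, except that library 15-145-CA3 counts as 2N. The 3 populations come from the same mice. Residuals of CA3 and the CA1 or DG library of the same mouse correlated with a median r of 0.109 over 7631 genes (26 pairs, 0.0153 to 0.223, 15 over 0.1), against -0.00997 between mice, and the pairing comes from the mouse names.

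Named genes were the 12 protein-coding genes with the smallest p in each direction, outside sex markers; DEGs of the choline, one-carbon, acetylcholine and DNA methylation lists with the 3 most abundant members of each; the 2 members with the smallest p in each direction of every other list if p was under 0.05; the 3 noncoding genes with the smallest p in each direction; and markers that were DEGs. Other genes, said so where named, were chosen after their values were seen. A few genes that the rule gives are not reported here. The members and lists (45, 15 of them markers) were chosen with earlier results of these data known. Alternatives were DESeq2 1.42.0, limma-voom (limma 3.58.1), other scalings and filters, 1 surrogate variable (sva 3.50.0), total count as a covariate, thinning, both genotypes in 1 fit, mice named 15- alone and leaving out each library.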

Additional observations from a re-analysis of the deposited data

Results flagged for a closer look

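In 17 of 224 groups of values (a gene, marker sum or library measure in 1 diet), the highest or lowest library stood apart from the rest by Dixon's test at 95%, where chance flags about 1 in 20. In ChP, Egr4 was at 31.7 CPM in mouse 15-336 against 10.9 to 15.8 in the other 6, and Npas4 at 39.2 CPM in 15-334 against 13.9 to 23.9. The Egr4 value lay above the ChN range and the Npas4 value within it, and both mice are named 15-. Syt17 was at 17.4 CPM in 15-296 against 1.02 to 5.47, Blnk at 15.2 CPM in 15-334 against 3.16 to 8.22, Bacc1 at 6.68 CPM in 15-269 against 0 to 2.63, and Usp29 at 40.7 CPM in 16-90 against 24.8 to 31.0. Gm28043 was low in 16-273, at 10.1 CPM against 24.3 to 31.4, and Rora low in 15-336, at 12.4 CPM against 30.0 to 42.4. Trf was at 23.4 CPM in 15-336 against 10.7 to 15.7.

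In ChN, Npy was at 51.3 CPM in mouse 15-145 against 9.15 to 18.7 in the other 5, and that library, the deepest, also held the only blood marker count (0.219 CPM against 0). Mouse 17-154 stood apart in 4 genes, with B4galt2 at 21.8 CPM against 12.9 to 16.1, Trf at 31.4 CPM against 14.9 to 19.7, Itgam at 7.42 CPM against 1.56 to 3.07 and Cacna1a at 497 CPM against 572 to 608. Cdh24 was at 57.7 CPM in 17-56 against 22.1 to 32.9, and oligodendrocyte markers summed to 510 CPM in 17-21 against 325 to 388.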

How the results depend on the processing

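The number of DEGs (558) stayed within 1.5 times under the alternatives except with no filter on low counts (1291). Leaving out 1 library gave 458 to 666 DEGs and 1 to 3 genes past the adjustment, with 3 without ChP mouse 15-334 (Fry and Npas4 besides Medag) and 2 without ChN mouse 17-172 (Camk1) or ChP mouse 16-273 (Gm28043). The count of 1 gene past the adjustment became 2 with DESeq2, 2 with both genotypes in 1 fit, 17 with no filter and 8 with the mice named 15- alone; Medag was among them each time. Size factors of DESeq2 (RLE) in place of TMM turned the split from 261 higher and 297 lower to 300 and 263.

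Immediate early genes lower, a count followed under all alternatives only after it was seen, ranged from 6 to 10, and was 6 to 9 with 1 library left out (9 without any 1 of mice 15-145, 15-147, 15-336 and 16-90), but was 0 with the mice named 15- alone. Arc then had an LFC of 0.0009, and Arc kept a p under 0.05 in 16 of 25 alternatives. Cdh24 turned to -0.0131 in libraries thinned to the lowest total. Of 2296 pairs of a named gene and an alternative, 1989 kept direction and side of the threshold, 303 lost the threshold and 2 gained it. Under the mice named 15- alone 43 of 92 lost it, and under thinning 30 of 87, which leaves fewer samples or counts by construction. Leaving out mouse 15-145 lost 21 of 92, the most for any single library, beside 6 to 16 for the others. No member then passed in the lists of calcium and sodium channels, GABA receptors, glycolysis, autophagy, cholesterol synthesis and interferon. Of lists with no DEG before, nuclear-encoded oxidative phosphorylation then held 1 higher and 1 lower, and endosome and retromer 1 higher.

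No alternative gave an interaction past the adjustment. Without mouse 15-145 the unadjusted counts were 739 (genotype), 751 (CA1) and 676 (DG), and 700 with that library under its own Ts label. The mouse as a replicate block gave 613 (CA1) and 559 (DG) and changed no adjusted call. No paired analysis was possible because no mouse had both diets, for the diet comparison itself. Genes near the median standard error of 0.21 could miss a fold of 1.5, and low genes larger ones.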
